A study of Mus musculus with 17 samples.

Results

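The genotype difference in the early serum response compares how *Nanog* knockout (KO) and control mouse embryonic stem (ES) cells changed over the first 12 h after 2i and LIF were withdrawn. For each gene, the change between 0 h and 12 h in control cells was subtracted from the change over the same interval in *Nanog* KO cells, on the log2(CPM + 1) scale, CPM being reads of a gene scaled to library size. All genes that reached 1 CPM in at least 3 of the 17 libraries were members, 15117 of the 15470 genes in the table, and 11 of the 17 libraries entered the comparison. *Nanog* KO cells were the BT12 line, a single line derived from the parental E14Tg2a cells that served as control. At 0 h both lines were held in 2i, LIF and knockout serum replacement (KOSR) over inactivated mouse embryonic fibroblasts, and at 12 h they had been in serum without 2i or LIF. *Nanog* KO cells had 3 libraries at each time, and control cells had 2 at 0 h (replicates 2 and 3) and 3 at 12 h. No label states that the replicates came from separate cultures, and p-values therefore measure the spread between libraries alone, which may be technical. That spread was pooled over all 17 libraries, those at 24 h included, with no separate estimate for control cells at 0 h.

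*Nanog* is a homeodomain transcription factor of the naive pluripotency network, together with *Pou5f1* and *Sox2*. The 2i inhibitors block MEK and GSK3, so their removal frees ERK signaling, lets the destruction complex act on beta-catenin again, and takes away the support that LIF gives through STAT3. Naive cells released in this way pass through a formative state, in which *Fgf5*, *Otx2*, *Pou3f1* and the de novo DNA methyltransferases are typically turned on, before germ layer genes appear. A positive genotype difference below means that *Nanog* KO cells gained more, or lost less, than control cells, and a negative one the reverse.

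*Nanog* itself had 31.7, 34.6 and 32.1 CPM in *Nanog* KO cells at 0 h, then 27.5, 25.9 and 22.5 CPM at 12 h. Control cells had 412 and 411 CPM of *Nanog* at 0 h and 411, 388 and 384 CPM at 12 h. Every *Nanog* KO library was below every control library, and the response did not differ between genotypes at the threshold (-0.30 ± 0.12, SE, adjusted p = 0.089, limma with Benjamini-Hochberg adjustment, which is the test behind every adjusted p below unless another is named). Libraries of the compared groups held 8775372 to 33766086 reads, so that 3 reads, the limit that a count of 0 allows, equaled 0.0851 to 0.326 CPM by counting error alone. Markers of ES cells summed to 3632 to 3822 CPM at 0 h and 3771 to 3829 CPM at 12 h in *Nanog* KO cells, against 2839 to 3078 CPM and 3658 to 3785 CPM in control cells. The 29 measured fibroblast markers, which feeder cells express, summed to 4054 to 4313 CPM at 0 h and 3010 to 3312 CPM at 12 h in *Nanog* KO cells, against 4557 to 4876 CPM and 4221 to 4443 CPM in control cells. The 5 endoderm markers (*Gata6*, *Gata4*, *Sox17*, *Sox7* and *Dab2*) summed to 151 to 159 CPM and then 253 to 255 CPM in *Nanog* KO cells, against 19.5 to 24.9 CPM and 22.6 to 25.8 CPM in control cells. The part that feeder or endoderm cells had in the values below was not tested, and in these bulk samples fewer cells of a type and less RNA per cell cannot be told apart.

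The response differed between genotypes at an adjusted p under 0.05 for 2953 genes, 19.5% of those tested. The difference was positive for 1502 genes (9.94%) and negative for 1451 (9.6%), with a median of 0.54 in size among called genes, and its median over all genes was 0.01. Of these, 224 positive (1.48%) and 116 negative (0.767%) were at least 1 in size. The step between 0 h and 12 h joins the withdrawal of 2i, LIF and KOSR with the addition of serum. Over it, *Nanog* KO cells had 3887 genes that rose (25.7%) and 3952 that fell (26.1%). Control cells had 3419 that rose (22.6%) and 3699 that fell (24.5%). The counts of every gene list below are to be read against these shares over all genes. The positive count was 1153 without control replicate 3 at 0 h and the negative count 1188 without *Nanog* KO replicate 3 at 0 h, the lowest when any 1 library was left out. Chromosome 15, whose 588 tested genes had a median of 0.41 higher log2(CPM + 1) in *Nanog* KO cells than in control cells at 0 h, had a median genotype difference in response of 0.02, with 70 genes positive and 63 negative.

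**Figure D1:**
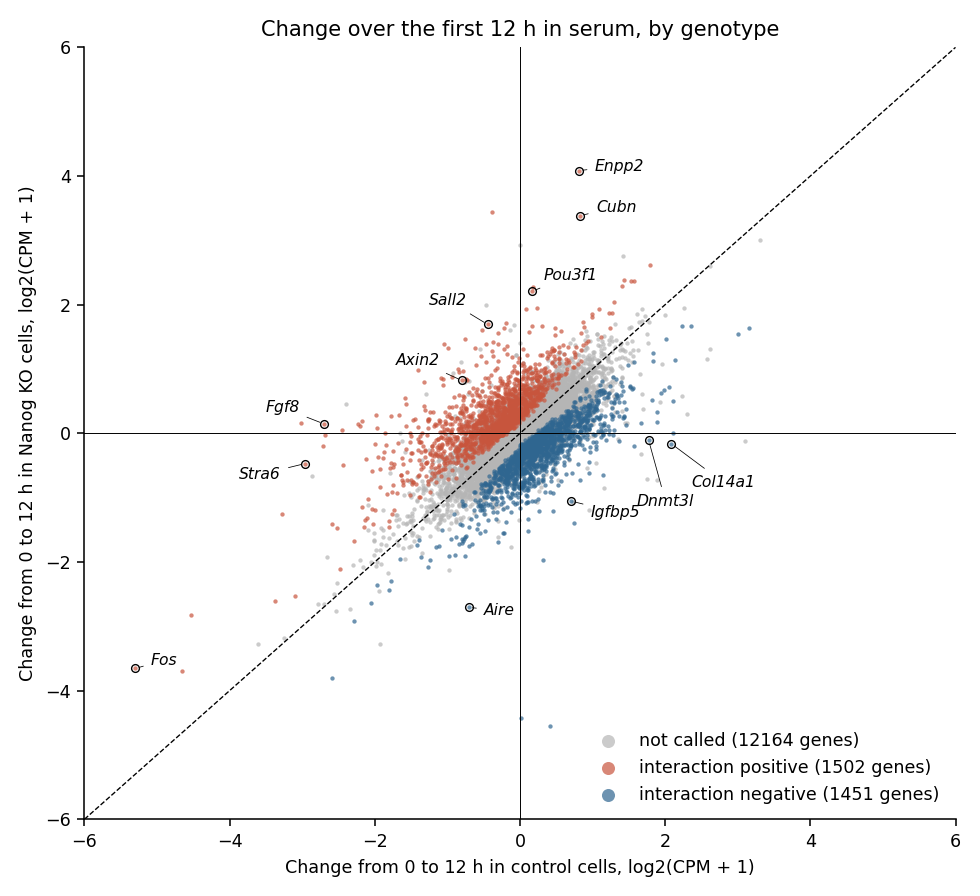
Change in each genotype between 0 h and 12 h for all 15117 genes, on the log2(CPM + 1) scale, with the change in *Nanog* KO cells on the vertical axis and the change in control cells on the horizontal axis. Genes above the diagonal gained more or lost less in *Nanog* KO cells, such as *Pou3f1* (2.21 in *Nanog* KO cells, against 0.17 in control cells), and genes below it gained less or lost more, such as *Dnmt3l* (-0.11 in *Nanog* KO cells, against 1.77 in control cells).

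The called genes fell into several kinds of pattern. Of the 1502 positive genes, 474 rose in *Nanog* KO cells with no call in control cells, 485 had no call in *Nanog* KO cells and fell in control cells, and 169 rose in *Nanog* KO but fell in control cells. A further 158 rose in both genotypes and 185 fell in both, by unequal amounts, and 31 were called in neither. Of the 1451 negative genes, 499 fell in *Nanog* KO cells with no call in control cells, 435 had no call in *Nanog* KO cells and rose in control cells, and 141 fell in *Nanog* KO but rose in control cells. Another 183 rose in both, 173 fell in both and 20 were called in neither. Among the 224 positive genes of at least 1 in size, 35 (15.6%) averaged under 1 CPM in *Nanog* KO cells at both times. A further fall could hardly be measured at that level. The same held in control cells for 8 of the 224 (3.57%). Of the 116 negative genes of that size, 13 (11.2%) were this low in the knockout line, and 7 (6.03%) in the control line. Without the size limit, the knockout line had 74 of 1502 positive (4.93%) and 36 of 1451 negative genes (2.48%) this low. The share over all tested genes was not counted, so a link between low expression and a called difference was not tested.

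**Figure D2:**
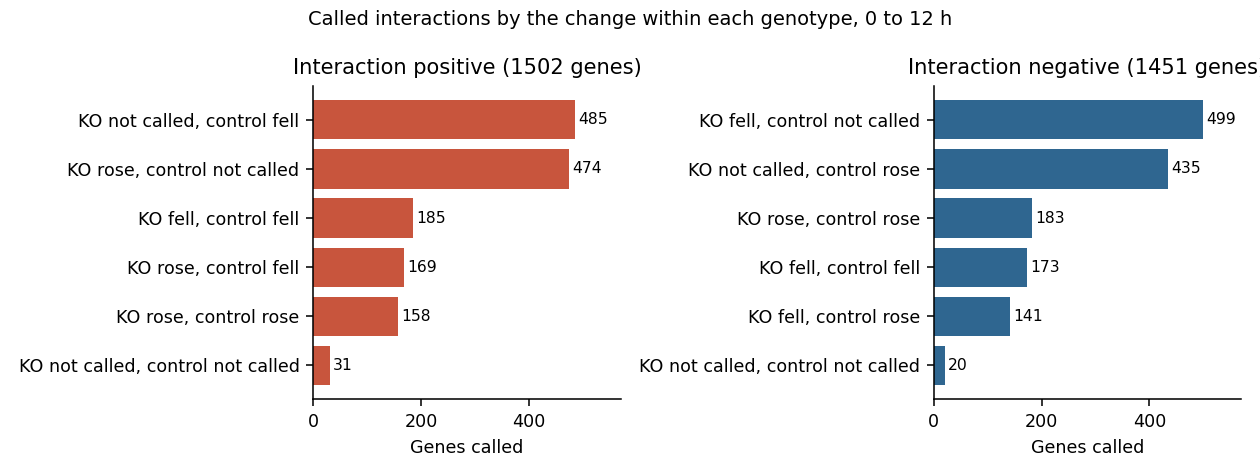
Number of genes with a positive or a negative genotype difference, split by whether the gene rose, fell or was not called in *Nanog* KO and in control cells between 0 h and 12 h. Genes that changed in 1 genotype only make up the longest bars, for example 474 genes that rose in *Nanog* KO cells alone and 485 that fell in control cells alone among the positive ones.

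Targets of Wnt and beta-catenin signaling mostly did not fall in *Nanog* KO cells and mostly fell in control cells. Of 21 genes tested, 12 had a positive difference and 0 a negative one (11 and 0 by edgeR on recovered reads, which called 9.37% of all genes positive and 9.48% negative), with a median of 0.64 against 0.01 over all genes. The median change was 0.12 in *Nanog* KO cells, against -0.63 in control cells, and 5 members fell in *Nanog* KO cells against 15 in control cells. Members started from unequal levels, with a sum of 253 to 268 CPM at 0 h and 329 to 357 CPM at 12 h in *Nanog* KO cells, against 725 to 802 CPM and 451 to 490 CPM in control cells.

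*Axin2*, a negative feedback target that scaffolds the beta-catenin destruction complex, had 14.1, 15 and 15.4 CPM at 0 h and 27.2, 24.7 and 29.1 CPM at 12 h in *Nanog* KO cells. In control cells *Axin2* had 37.6 and 41.2 CPM at 0 h and 22.3, 22.3 and 21.8 CPM at 12 h. The order of the genotypes thus turned round without overlap at either time, a difference in response of 1.62 ± 0.11 (adjusted p = 4.3e-08). *Lef1*, a nuclear partner of beta-catenin, had 3.91, 4.78 and 4.81 CPM and then 10.5, 10.9 and 13.4 CPM in *Nanog* KO cells, against 34.7 and 39.7 CPM and then 27.2, 29.3 and 28.6 CPM in control cells. *Lef1* therefore rose in *Nanog* KO but fell in control cells (1.57 ± 0.14), while its control libraries stayed the higher ones throughout. *Ccnd1*, which encodes the G1 cyclin D1, rose by 0.76 in *Nanog* KO cells and fell by 0.53 in control cells.

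The primitive streak factor *T* (brachyury) had 1.3, 2.18 and 1.79 CPM at 0 h and 1.27, 1.05 and 1.95 CPM at 12 h in *Nanog* KO cells, against 59.5 and 62.5 CPM and then 8.03, 10.3 and 7.39 CPM in control cells. It was low in *Nanog* KO cells at both times, with no call there (-0.19, adjusted p = 0.34), fell in control cells by 2.71, and had a difference of 2.52 ± 0.24 (adjusted p = 1.4e-06). The same shape was seen in *Fgf8*, a streak and isthmus FGF ligand, which had 0.0521, 0.318 and 0.263 CPM at 0 h and 0.293, 0.314 and 0.407 CPM at 12 h in *Nanog* KO cells, against 18.6 and 17.6 CPM and then 1.62, 2.36 and 1.85 CPM in control cells. The *Nanog* KO values of *Fgf8* lay around the 3-read limit, and its difference was 2.86 ± 0.22. *Nkx1-2*, a homeobox gene of the caudal epiblast, had a difference of 2.49 ± 0.23 with 0.0875 to 0.159 CPM in *Nanog* KO cells at 0 h, against 26.3 and 30.0 CPM in control cells. The ligand gene *Wnt8a*, in contrast, was well measured in *Nanog* KO cells and had no call there (8.70, 8.81 and 9.80 CPM at 0 h and 10.2, 9.53 and 10.7 CPM at 12 h), against 25.2 and 26.2 CPM and then 4.74, 4.24 and 5.11 CPM in control cells, a difference of 2.37 ± 0.17. Across the list of primitive streak and mesoderm genes, 7 of 20 were positive and 3 negative, with a median of 0.40. Those are 35% and 15%, against 9.94% and 9.6% of all genes.

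*Sp5*, a zinc finger gene that Wnt signaling induces, shows how a ratio depends on the scale when one genotype starts low. It had 2.86, 1.43 and 2.23 CPM and then 0.146, 0.471 and 0.325 CPM in *Nanog* KO cells, against 43.1 and 64.8 CPM and then 4.74, 5.46 and 3.59 CPM in control cells, so it fell in both. The difference of 2.03 on log2(CPM + 1) was 0.74 by edgeR (adjusted p = 0.48), and the call was also lost with DESeq2 and with 0.1 CPM added. The sequence CTTTGAT, a core bound by LEF and TCF factors, or its reverse complement ATCAAAG, was found in 3 of 15 list members with a RefSeq promoter (20%), against 4.29% of all 27025 genes with one. A second core searched, CTTTGAA or TTCAAAG, was also found in 3 of 15 (20%), against 5.93% of all genes. The promoters of *Axin2* and *Lef1* held neither core. The *Sp5* promoter is printed from RefSeq on GRCm38.p6 (chr2:70474673-70474972, plus strand, 250 bases before to 50 after the start site) because the call of *Sp5* depended on the scale, and its match, in capitals, begins 104 bases before the start.
Sp5: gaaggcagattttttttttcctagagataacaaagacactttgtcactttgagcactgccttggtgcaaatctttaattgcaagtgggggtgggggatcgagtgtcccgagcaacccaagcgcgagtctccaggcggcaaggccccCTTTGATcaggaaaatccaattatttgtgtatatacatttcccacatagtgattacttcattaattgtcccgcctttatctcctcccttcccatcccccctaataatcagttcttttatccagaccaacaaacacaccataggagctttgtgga

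Hox genes, which pattern the body axis, showed the same dependence on the floor. Of 29 tested, 7 had a positive difference and 0 a negative one, with a median of 0.46, but edgeR called only 1 and the fit with 0.1 CPM added (9.11% of all genes positive) only 1. Their sum was 33.9 to 37.8 CPM at 0 h and 22.0 to 23.6 CPM at 12 h in *Nanog* KO cells, against 243 to 285 CPM and 127 to 153 CPM in control cells. *Cdx4*, a caudal factor upstream of Hox genes, rose in *Nanog* KO cells by 0.74 and fell in control cells by 1.06, with 0.569 to 1.05 CPM in *Nanog* KO cells at 12 h against 3.89 to 4.56 CPM in control cells. The *Nanog* KO level of *Cdx4* at 0 h was lower still and near the floor.

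**Figure D3:**
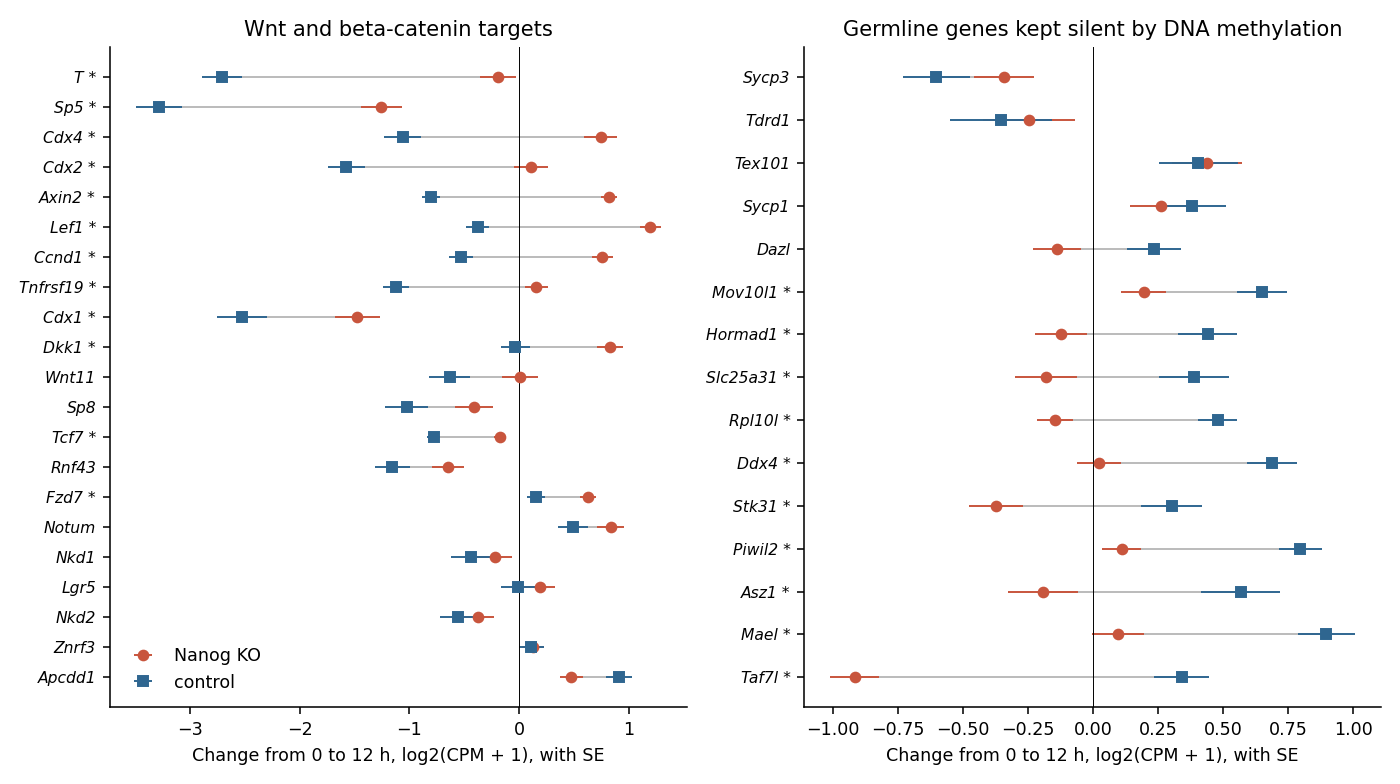
Change between 0 h and 12 h in *Nanog* KO cells (circles) and control cells (squares), with standard errors, for each tested gene of the Wnt and beta-catenin list and of the methylation-sensitive germline list, on the log2(CPM + 1) scale. An asterisk marks a gene whose genotype difference passed the test, 12 Wnt genes with the circle right of the square and 10 germline genes with the circle left of it.

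Formative and primed genes rose more in *Nanog* KO cells on balance, with 2 large exceptions. Of 23 tested, 13 were positive and 2 negative (14 and 2 by edgeR), with a median of 0.48, and the median change was 0.47 in *Nanog* KO cells, against -0.14 in control cells. The positive count was 7 without control replicate 3 at 0 h, where 7.63% of all genes were positive and 8.3% negative. *Pou3f1*, a POU factor of the anterior epiblast and early neural cells, had 8.28, 9.5 and 8.01 CPM at 0 h and 38.9, 42.7 and 48.5 CPM at 12 h in *Nanog* KO cells. In control cells *Pou3f1* had 14.1 and 20.3 CPM at 0 h and 21.2, 18.3 and 18.1 CPM at 12 h. It was below every control library at 0 h and above every one at 12 h in *Nanog* KO cells, a difference of 2.04 ± 0.21 (adjusted p = 2.2e-06), and the change in control cells was 0.17 (adjusted p = 0.39). At 24 h *Pou3f1* averaged 106 ± 15.9 CPM in *Nanog* KO cells and 73.9 ± 13.6 CPM in control cells (SD, n = 3 each).

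*Sall2*, a zinc finger factor, had 5.31, 5.89 and 5.43 CPM and then 20.1, 20.1 and 20.3 CPM in *Nanog* KO cells, against 38.3 and 44.2 CPM and then 30.9, 30.4 and 28.6 CPM in control cells. It rose in *Nanog* KO cells by 1.69 and fell in control cells by 0.45 (2.14 ± 0.12, adjusted p = 2.7e-09), and the genotypes stayed apart at both times. *Fgf5*, the classical marker of the post-implantation epiblast, had 0.989, 0.372 and 0.481 CPM and then 3.03, 3.77 and 4.47 CPM in *Nanog* KO cells, against 4.27 and 4.31 CPM and then 2.50, 3.26 and 4.24 CPM in control cells. The genotypes were apart at 0 h and overlapped at 12 h, with a difference of 1.87 ± 0.29 (adjusted p = 0.00017). By 24 h *Fgf5* averaged 14.5 ± 3.49 CPM in *Nanog* KO cells and 12.7 ± 2.37 CPM in control cells.

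*Otx2* and *Dnmt3l* were the exceptions in the other direction. *Otx2*, a homeodomain factor of formative and anterior cells, had 45.9, 44.5 and 43.1 CPM and then 57.9, 55.6 and 55.5 CPM in *Nanog* KO cells, against 6.89 and 7.34 CPM and then 28.5, 29.0 and 29.4 CPM in control cells. It was already high in *Nanog* KO cells before serum, and the response difference was -1.55 ± 0.13 (adjusted p = 2.5e-07). *Dnmt3l*, the catalytically inactive cofactor of the de novo methyltransferases, had 863, 847 and 837 CPM and then 771, 776 and 821 CPM in *Nanog* KO cells, against 90.9 and 87.7 CPM and then 318, 301 and 304 CPM in control cells. The change in *Dnmt3l* was -0.11 in *Nanog* KO cells (adjusted p = 0.19), against 1.77 in control cells, and the difference was -1.88 ± 0.10 (adjusted p = 2.7e-09). Among the enzymes themselves, *Dnmt3a* had 142, 138 and 141 CPM and then 513, 544 and 553 CPM in *Nanog* KO cells, against 97.8 and 105 CPM and then 213, 226 and 209 CPM in control cells (0.84). *Dnmt3b* rose in both genotypes, by 0.76 in *Nanog* KO cells, against 0.89 in control cells, and the difference was not called (-0.13 ± 0.11, adjusted p = 0.46).

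Of 21 neural genes tested, 8 were positive and 0 negative, with a median of 0.15. Members started from unequal levels, with a sum of 112.3 to 126 CPM at 0 h and 200.7 to 221.8 CPM at 12 h in *Nanog* KO cells. In control cells they summed to 341.8 and 400 CPM and then 323.5 to 348.2 CPM. The sum was thus lower in *Nanog* KO cells at both times. *Sox1*, a marker of neural progenitors, had 5.52, 5.47 and 6.96 CPM and then 7.42, 6.81 and 7.07 CPM in *Nanog* KO cells, against 9.10 and 18.2 CPM and then 3.83, 4.16 and 4.35 CPM in control cells. *Sox1* was not called in *Nanog* KO cells and fell in control cells, whose libraries at 0 h lay far apart (difference 1.67 ± 0.29, and 1.2 without control replicate 3 at 0 h). *Sox3*, a close relative of *Sox1*, rose in *Nanog* KO but fell in control cells (2.13 ± 0.27), with 0.875 to 1.56 CPM at 0 h and 1.90 to 3.58 CPM at 12 h in *Nanog* KO cells, against 11.4 and 14 CPM and then 3.69 to 4.91 CPM in control cells. *Irx3*, a homeobox gene of the neural tube, had a difference of 2.05 ± 0.25 with no call in *Nanog* KO cells (0.27, adjusted p = 0.18) and a fall of control cells by 1.78. *Sox8*, at 0.104 to 0.306 CPM in *Nanog* KO cells at 0 h, then 1.05 to 1.54 CPM at 12 h, against 0.207 and 0.559 CPM and then 0.245 to 0.794 CPM in control cells, was called only narrowly (0.75 ± 0.26, adjusted p = 0.047). *Sox8* was not called by edgeR (adjusted p = 0.053) or without control replicate 3 at 0 h (0.56, adjusted p = 0.20).

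**Figure D4:**
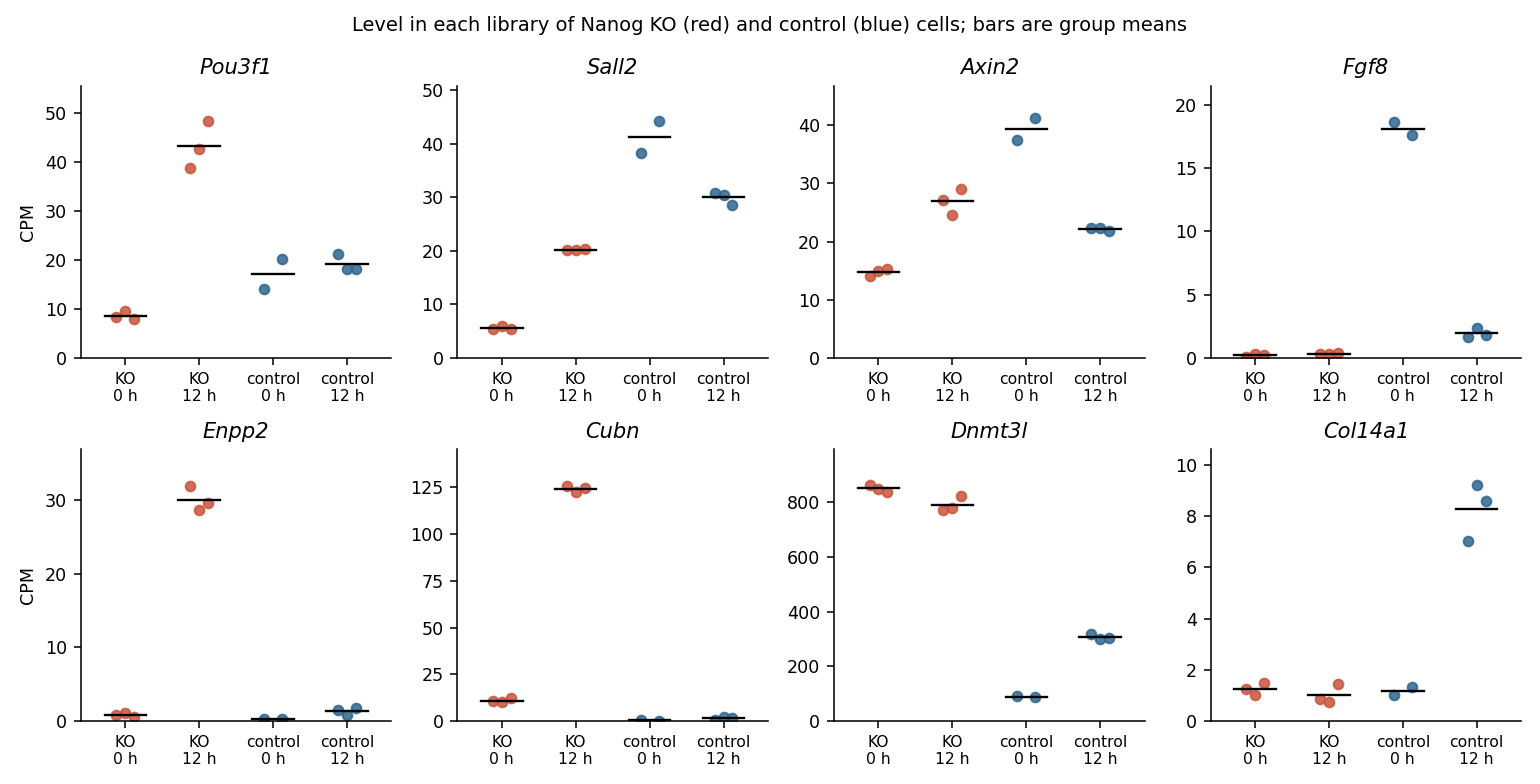
CPM in every library of *Nanog* KO cells and of control cells at 0 h and 12 h for *Pou3f1*, *Sall2*, *Axin2*, *Fgf8*, *Enpp2*, *Cubn*, *Dnmt3l* and *Col14a1*, with linear axes from 0 and a bar at each group mean. *Nanog* KO libraries of *Pou3f1* lie between 8.01 and 9.5 CPM at 0 h and between 38.9 and 48.5 CPM at 12 h, against 14.1 to 20.3 CPM and 18.1 to 21.2 CPM in control libraries.

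Endoderm genes gained more in *Nanog* KO cells on balance. Of 25 tested, 12 were positive and 3 negative (the same counts by edgeR), with a median of 0.63, and 13 rose in *Nanog* KO cells against 8 in control cells. Over all genes, 9.94% were positive and 9.6% negative, and 25.7% rose in *Nanog* KO cells against 22.6% in control cells. *Cubn*, which encodes the endocytic receptor cubilin of the visceral endoderm, had 10.7, 10.1 and 12.3 CPM and then 126, 122 and 125 CPM in *Nanog* KO cells, against 0.482 and 0.359 CPM and then 0.738, 2.53 and 1.63 CPM in control cells. Control libraries of *Cubn* were near the 3-read limit at 0 h, and the difference of 2.55 ± 0.34 was 1.82 by edgeR (adjusted p = 0.21). *Lrp2*, the partner receptor megalin, was well measured in both lines, with 57.9, 59.0 and 70.6 CPM and then 336, 323 and 323 CPM in *Nanog* KO cells, against 40.5 and 37.3 CPM and then 118, 114 and 120 CPM in control cells. It rose in both genotypes and by 0.81 ± 0.11 more in *Nanog* KO cells. *Foxa2*, a forkhead factor of endoderm, had a difference of 1.75 ± 0.28, and in control cells it fell by 1.32.

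Of the defining endoderm factors, *Gata6* had 43.0, 38.4 and 39.1 CPM and then 43.4, 43.8 and 42.5 CPM in *Nanog* KO cells, against 2.34 and 4.19 CPM and then 3.32, 2.45 and 1.52 CPM in control cells. It was higher in every *Nanog* KO library, and its response was not called as different (0.42 ± 0.24, adjusted p = 0.24). Neither *Gata4* (0.86 ± 0.30, adjusted p = 0.05) nor *Sox17* (0.63 ± 0.24, adjusted p = 0.077) passed the test, although both did by edgeR (adjusted p = 0.015 and 0.027) and both did without control replicate 2 at 0 h. The adaptor gene *Dab2* (0.83) was positive, and *Sox7* (-0.77) and the lipoprotein gene *Apoe* (-0.86) were negative. The summed endoderm markers given above were higher at 12 h than at 0 h in every *Nanog* KO library. Most of that rise came from 1 marker, as the highest marker mean was 62.7 CPM at 0 h and 156 CPM at 12 h. The part of endoderm cells in these values was not tested.

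*Enpp2*, which encodes autotaxin, the enzyme that makes lysophosphatidic acid, had the largest difference among the genes named by size. It had 0.833, 1.06 and 0.613 CPM and then 31.9, 28.6 and 29.5 CPM in *Nanog* KO cells, against 0.345 and 0.279 CPM and then 1.48, 0.815 and 1.74 CPM in control cells. *Enpp2* rose by 4.08 in *Nanog* KO cells, against 0.82 in control cells (3.27 ± 0.38, adjusted p = 1.1e-05), and edgeR gave 3.03 (adjusted p = 0.13) where DESeq2 gave 3.04 (adjusted p = 0.00041). At 24 h *Enpp2* averaged 45.7 ± 20.7 CPM in *Nanog* KO cells and 15.2 ± 2.47 CPM in control cells. *Btg3*, an antiproliferative gene with near-identical copies among which reads could be split, had 0.963 to 6.46 CPM in *Nanog* KO cells at 0 h against 6.20 and 58.5 CPM in control cells, and its difference of 3.19 was 1.66 (adjusted p = 0.29) without control replicate 3 and 4.71 without replicate 2. *Stra6*, the receptor for retinol-binding protein, fell less in *Nanog* KO cells (7.97, 7.11 and 8.10 CPM, then 5.12, 6.44 and 4.47 CPM) than in control cells (28.5 and 30.8 CPM, then 2.58, 3.59 and 2.72 CPM). *Stra6* had a difference of 2.49 ± 0.23, and 6 of 15 retinoid genes were positive and 0 negative (40% and 0%, against 9.94% and 9.6% of all genes). *Vrtn*, a transposon-derived vertebral development gene, rose in *Nanog* KO but fell in control cells (2.33 ± 0.24). Of the remaining genes named by size, *Foxb1*, *Pomc* and *Car14* had differences of 2.66, 2.36 and 2.31, and *Foxb1* was not called by edgeR (adjusted p = 0.18).

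Immediate early genes fell less in *Nanog* KO cells on balance, from a lower summed start. Of 21 tested, 10 were positive and 1 negative (8 and 1 by edgeR), with a median of 0.40. The median change was -0.98 in *Nanog* KO cells, against -1.40 in control cells. List members summed to 1524 to 1567 CPM at 0 h and 709 to 757 CPM at 12 h in *Nanog* KO cells. In control cells they summed to 1813 and 2116 CPM and then 707 to 769 CPM, so the genotypes overlapped at 12 h. *Atf3*, a stress-induced bZIP factor, had 7.19, 7.64 and 6.65 CPM and then 10.5, 8.01 and 8.46 CPM in *Nanog* KO cells, against 25.7 and 25.5 CPM and then 6.61, 6.03 and 4.67 CPM in control cells. The genotypes changed order without overlap (2.27 ± 0.18). *Fos*, the AP-1 subunit, fell in both genotypes, to 6.83, 6.70 and 8.29 CPM at 12 h after 109, 99.0 and 101 CPM at 0 h in *Nanog* KO cells, against 3.32, 2.94 and 3.69 CPM after 172 and 165 CPM in control cells (1.64 ± 0.17). ERK feedback and ETS genes were mixed, with 6 of 14 positive and 3 negative and a median of 0.14. The ERK phosphatase gene *Dusp6* rose in both lines, with 59.2, 59.3 and 58.4 CPM and then 140, 144 and 144 CPM in *Nanog* KO cells, against 81.2 and 89.6 CPM and then 124, 127 and 122 CPM in control cells (0.72). *Spry4* (-0.47) and *Etv1* (-0.85) were negative.

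The FGF and Notch families each had 9 positive members (56.2% and 45% of those tested, against 9.94% of all genes). Of 16 FGF ligands and receptors tested, 9 were positive and 2 negative, with a median of 0.53. *Fgf3*, an embryonic ligand, had 0.885, 1.33 and 0.919 CPM and then 3.17, 3.56 and 4.39 CPM in *Nanog* KO cells, against 1.86 and 1.99 CPM and then 0.539, 1.3 and 1.3 CPM in control cells, so that the genotypes changed order (1.74 ± 0.25). *Fgf4*, the main autocrine ligand of ES cells, rose in both lines, by 1.34 in *Nanog* KO cells, against 0.66 in control cells. *Fgf15* had a difference of 1.84 ± 0.23. Of 20 Notch pathway genes, 9 were positive and 1 negative, with a median of 0.43. The effector *Hes1* had 18.2, 16.7 and 17.9 CPM and then 19.4, 18.0 and 18.5 CPM in *Nanog* KO cells, against 67.2 and 80.2 CPM and then 16.2, 19.2 and 18.8 CPM in control cells. Control values came down into the range of the *Nanog* KO values (2.05 ± 0.12, adjusted p = 7.8e-09). The ligand gene *Dll1* rose to 10.8, 10.8 and 10.4 CPM at 12 h after 2.86, 3.72 and 3.85 CPM at 0 h in *Nanog* KO cells, and had 4.62, 5.71 and 4.67 CPM after 7.03 and 7.46 CPM in control cells. *Rbpj*, the DNA-binding partner of the Notch intracellular domain, was the 1 negative member (-0.92).

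Among pluripotency genes, *Pou5f1* (-0.21, adjusted p = 0.28) and *Sox2* (-0.04, adjusted p = 0.74) were not called. Of 18 core pluripotency genes, 2 were positive and 8 negative, with a median of -0.25 (2 and 8 also by edgeR and without control replicate 2 or 3 at 0 h), and of 17 naive genes 3 were positive and 3 negative, with a median of -0.13. *Tdgf1*, the Nodal coreceptor Cripto, had 902, 910 and 916 CPM and then 265, 292 and 283 CPM in *Nanog* KO cells, against 350 and 331 CPM and then 197, 196 and 193 CPM in control cells. It fell more in *Nanog* KO cells, where it had started higher (-0.90). *Pecam1*, an adhesion molecule of naive cells, had no call in *Nanog* KO cells (75.8, 73.9 and 77.6 CPM, then 81.8, 78.1 and 76.5 CPM) and rose in control cells (34.0 and 34.9 CPM, then 80.5, 80.0 and 87.0 CPM), a difference of -1.18. The RNA-binding protein gene *Lin28a* (0.75) and the orphan receptor gene *Esrrb* (0.36) were positive. LIF and STAT3 targets split into 4 positive and 5 negative of 16, with the homeobox gene *Gbx2* (1.29) and the kinase gene *Pim1* (1.08) positive and the feedback inhibitor *Socs3* (-0.58) negative. The Nodal antagonist gene *Lefty2* (-1.0) and the BMP ligand gene *Bmp4* (-0.81) were negative. Of 17 Nodal pathway genes, 3 were positive (1 without control replicate 3 at 0 h) and 4 negative, and of 16 BMP feedback and Id genes 4 were positive and 2 negative (1 and 3 without control replicate 3 at 0 h). The naive, Nodal and BMP counts are of few genes, and 9.94% of all genes were positive and 9.6% negative.

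Genes of the germ line that DNA methylation is known to silence were mostly not called in *Nanog* KO cells and mostly rose in control cells. Of 15 tested, 0 were positive and 10 negative (0 and 10 by edgeR, 0 and 8 without control replicate 3 at 0 h), with a median of -0.57. In *Nanog* KO cells 1 member rose and 3 fell, against 12 that rose and 1 that fell in control cells. *Taf7l*, a germ cell paralog of a TFIID subunit, had 35.3, 30.3 and 32.3 CPM and then 16.3, 17.7 and 16.3 CPM in *Nanog* KO cells, against 6.34 and 5.55 CPM and then 8.62, 6.77 and 8.04 CPM in control cells. It fell in *Nanog* KO but rose in control cells, and the genotypes did not overlap at either time (-1.26 ± 0.14, adjusted p = 7.5e-06). *Mael*, a component of the piRNA pathway, had 16.7, 16.9 and 14.5 CPM and then 16.2, 17.1 and 18.3 CPM in *Nanog* KO cells, against 4.96 and 4.71 CPM and then 10.5, 8.32 and 11 CPM in control cells (-0.80). *Ddx4*, the Vasa RNA helicase, had 22.7, 20.8 and 22.1 CPM and then 21.6, 24.3 and 20.8 CPM in *Nanog* KO cells, against 10.8 and 11.1 CPM and then 19.5, 16.0 and 19.4 CPM in control cells (-0.67). The kinase gene *Stk31* had a difference of -0.68, and *Asz1*, another piRNA pathway gene, was not called without control replicate 3 at 0 h (-0.66, adjusted p = 0.067).

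Most of these germ line genes with a promoter in RefSeq held in it a short sequence that the choice of the list did not use. The E-box CACGTG, which reads the same on both strands and is the core that MYC, MAX and related bHLH factors recognize, was found in the promoters of 11 of the 16 list genes with one in RefSeq (68.8%), against 2187 of 27025 genes (8.09%). Among the 14 tested members with a promoter, 10 held it (71.4%), and *Asz1* was among those without it. A match is a description of these letters in this window. The promoters of the 3 members with values above are printed on GRCm38.p6, 250 bases before to 50 after the start site, with the E-box in capitals, at chrX:134476441-134476740 for *Taf7l*, chr1:166238695-166238994 for *Mael* and chr13:112652261-112652560 for *Ddx4*, all on the minus strand. The first base of the E-box lies 49 bases before the start in *Taf7l*, 223 in *Mael* and 29 in *Ddx4*.
Taf7l: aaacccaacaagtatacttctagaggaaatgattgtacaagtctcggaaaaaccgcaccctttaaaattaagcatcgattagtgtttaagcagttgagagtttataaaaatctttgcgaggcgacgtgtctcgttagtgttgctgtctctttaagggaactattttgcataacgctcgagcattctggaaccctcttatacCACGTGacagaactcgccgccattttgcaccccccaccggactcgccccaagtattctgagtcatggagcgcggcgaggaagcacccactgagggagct
Mael: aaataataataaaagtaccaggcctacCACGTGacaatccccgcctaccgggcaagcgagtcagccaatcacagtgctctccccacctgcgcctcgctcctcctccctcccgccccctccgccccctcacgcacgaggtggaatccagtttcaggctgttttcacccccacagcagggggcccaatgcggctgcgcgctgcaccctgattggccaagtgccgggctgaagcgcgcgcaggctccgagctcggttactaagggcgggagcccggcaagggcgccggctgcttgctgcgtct
Ddx4: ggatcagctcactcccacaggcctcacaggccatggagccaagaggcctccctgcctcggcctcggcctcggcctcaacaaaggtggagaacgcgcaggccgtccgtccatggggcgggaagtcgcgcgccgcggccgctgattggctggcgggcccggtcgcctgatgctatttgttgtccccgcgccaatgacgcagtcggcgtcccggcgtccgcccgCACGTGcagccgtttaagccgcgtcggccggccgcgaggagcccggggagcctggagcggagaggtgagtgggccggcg

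Imprinted genes were split, with 8 of 23 positive and 3 negative (34.8% and 13%, against 9.94% and 9.6% of all genes). The long noncoding RNA *Meg3* had 155, 170 and 204 CPM and then 156, 160 and 163 CPM in *Nanog* KO cells, against 169 and 211 CPM and then 62.3, 66.7 and 67.9 CPM in control cells. The genotypes overlapped at 0 h and were apart at 12 h (1.37 ± 0.12), and *Rian* (1.08) and *Mirg* (1.08), noncoding RNAs of the same Dlk1-Dio3 domain, moved in the same direction. At 24 h *Meg3* averaged 195 ± 5.15 CPM in *Nanog* KO cells and 82.8 ± 2.80 CPM in control cells. *Mest*, a paternally expressed hydrolase gene of another domain, rose in both lines and by 1.02 more in *Nanog* KO cells, which stayed far lower (68.1, 68.5 and 68.9 CPM at 12 h, against 321, 330 and 336 CPM in control cells).

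Several genes of cell guidance and matrix rose in control cells alone. *Col14a1*, a fibril-associated collagen, had 1.25, 1.01 and 1.49 CPM and then 0.879, 0.733 and 1.46 CPM in *Nanog* KO cells, against 1.03 and 1.32 CPM and then 7.01, 9.21 and 8.58 CPM in control cells. The genotypes overlapped at 0 h and not at 12 h (-2.25 ± 0.22, adjusted p = 1.6e-06), and at 24 h *Col14a1* averaged 0.821 ± 0.175 CPM in *Nanog* KO cells and 16.6 ± 1.92 CPM in control cells. *Sema3d*, a secreted semaphorin, had 1.25, 0.690 and 0.481 CPM and then 1.07, 0.576 and 0.732 CPM in *Nanog* KO cells, against 0.276 and 0.519 CPM and then 3.94, 4.97 and 6.30 CPM in control cells (-2.10). The atypical cadherin gene *Fat4* (-1.71) had the same shape, with 0.244 to 0.471 CPM in *Nanog* KO cells at 12 h against 4.40 to 5.98 CPM in control cells, and so did the receptor gene *Robo2* (-1.50). Neuropilin 2, encoded by *Nrp2*, was measured at a higher level and, unlike these genes, differed mainly by a fall in *Nanog* KO cells. *Nrp2* had 109, 103 and 107 CPM and then 50.8, 54.0 and 48.1 CPM in *Nanog* KO cells, against 105 and 115 CPM and then 124, 130 and 116 CPM in control cells (-1.21). Over 30 axon guidance genes, 4 were positive and 7 negative (4 negative without control replicate 2 at 0 h, where 9.72% of all genes were positive and 8% negative). By edgeR, 5 were positive and 5 negative, so the lean to negative depended on the test. *Sema6a* (1.94) was among the positive ones.

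Fibroblast markers mostly fell in both genotypes. Of 29 tested, 1 was positive (0 without control replicate 3 at 0 h) and 9 negative, with a median of -0.10, and 23 fell in *Nanog* KO cells against 17 in control cells. *Col1a2*, a chain of type I collagen, had 190, 212 and 209 CPM and then 119, 123 and 155 CPM in *Nanog* KO cells, against 204 and 222 CPM and then 307, 311 and 283 CPM in control cells (-1.12). The genotypes overlapped at 0 h and were apart at 12 h. The intermediate filament gene *Vim* fell in both lines and by 1.01 more in *Nanog* KO cells, and *Col3a1* had a difference of -0.90. *Igfbp5*, a secreted binder of insulin-like growth factors, had 6.04, 7.27 and 6.17 CPM and then 2.05, 3.56 and 2.36 CPM in *Nanog* KO cells, against 57.2 and 67.2 CPM and then 96.5, 116 and 94.1 CPM in control cells (-1.76). The part of feeder cells in *Col14a1*, *Nrp2* and *Igfbp5* was not tested. *Tbx2*, a T-box repressor, had 0.342, 0.419 and 0.569 CPM in *Nanog* KO cells at 12 h against 2.30, 2.53 and 1.63 CPM in control cells (-1.18), and the trophoblast and mesoderm factor gene *Hand1* was also negative (-1.25). *Mef2c* missed the threshold (-0.66, adjusted p = 0.067), and *Hand2* did not pass the filter on low values.

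Other genes named for a negative difference include *Aire*, known as the thymic regulator of self-antigen expression, which fell in *Nanog* KO cells (92.3, 102 and 111 CPM, then 13.7, 14.2 and 16.3 CPM) further than in control cells (14 and 16.7 CPM, then 8.96, 8.40 and 9.56 CPM), a difference of -2.0. *Nlrc4*, an inflammasome sensor, had 7.45, 7.54 and 7.13 CPM and then 9.42, 11.4 and 11.9 CPM in *Nanog* KO cells, against 1.38 and 1.68 CPM and then 10.2, 10 and 9.45 CPM in control cells, so that the genotypes were apart at 0 h and overlapped at 12 h (-1.61). *Dock8*, an exchange factor for CDC42, rose in control cells alone (-1.78), and *Cd37* and *Ccdc184* had differences of -1.57 and -1.64. *Mef2b* had 10.6 to 10.9 CPM in *Nanog* KO cells at 0 h against 0 and 3.59 CPM in control cells, and its difference of -2.28 was -1.18 without replicate 2 of that group and -3.38 without replicate 3, and was not called by edgeR (adjusted p = 0.069).

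Heat shock and interferon genes were more often positive than negative. Of 15 heat shock chaperones, 7 were positive and 1 negative with a median of 0.10. *Hspa1b* had 7.24, 7.11 and 7.44 CPM and then 25.4, 23.5 and 29.6 CPM in *Nanog* KO cells, against 17 and 16.1 CPM and then 13.9, 15.2 and 14.1 CPM in control cells (1.90). Its near-identical copy *Hspa1a* moved likewise (1.36), and reads between the pair could be split. Of 18 interferon response genes, 8 were positive and 1 negative (0 negative without control replicate 3 at 0 h) with a median of 0.52. Of these 18, 8 fell in *Nanog* KO cells against 13 in control cells. The immunoproteasome subunit gene *Psmb8* had 1.72, 2.07 and 2.06 CPM and then 0.927, 1.57 and 0.650 CPM in *Nanog* KO cells, against 16.2 and 12.6 CPM and then 3.01, 4.08 and 2.17 CPM in control cells (1.39), and the ubiquitin-like *Isg15* had a difference of 1.58.

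Hypoxia-induced genes fell by a median of 1.73 in *Nanog* KO cells, against 1.34 in control cells, with 2 positive (1 without control replicate 3 at 0 h) and 5 negative differences of 18. Among them was the oxygen sensor gene *Egln3* (-1.21), which encodes a prolyl hydroxylase. Glycolysis genes had a median change of -1.35 in *Nanog* KO cells, against -1.15 in control cells, with 4 positive and 6 negative of 22 (3 negative without control replicate 2 at 0 h). Among them were the enolase gene *Eno3* (1.28) and the phosphofructokinase gene *Pfkp* (-1.07). *Ldha* did not pass (0.17, adjusted p = 0.13). Sterol synthesis genes had 2 positive (0 without control replicate 3 at 0 h) and 3 negative of 24, with 22 falling in *Nanog* KO cells, against 23 in control cells. DNA replication genes had 1 positive and 2 negative of 24, mitosis genes 1 and 0 of 22, p53 targets 4 and 1 of 19 and Polycomb genes 3 and 5 of 22. Without control replicate 2 at 0 h, the replication genes had 5 negative, the mitosis genes 0 positive and 1 negative, and the Polycomb genes 5 positive. Without replicate 3 of that group the mitosis genes had 0 positive. A list count near the shares over all genes, 9.94% positive and 9.6% negative, is no result about that list.

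**Figure D5:**
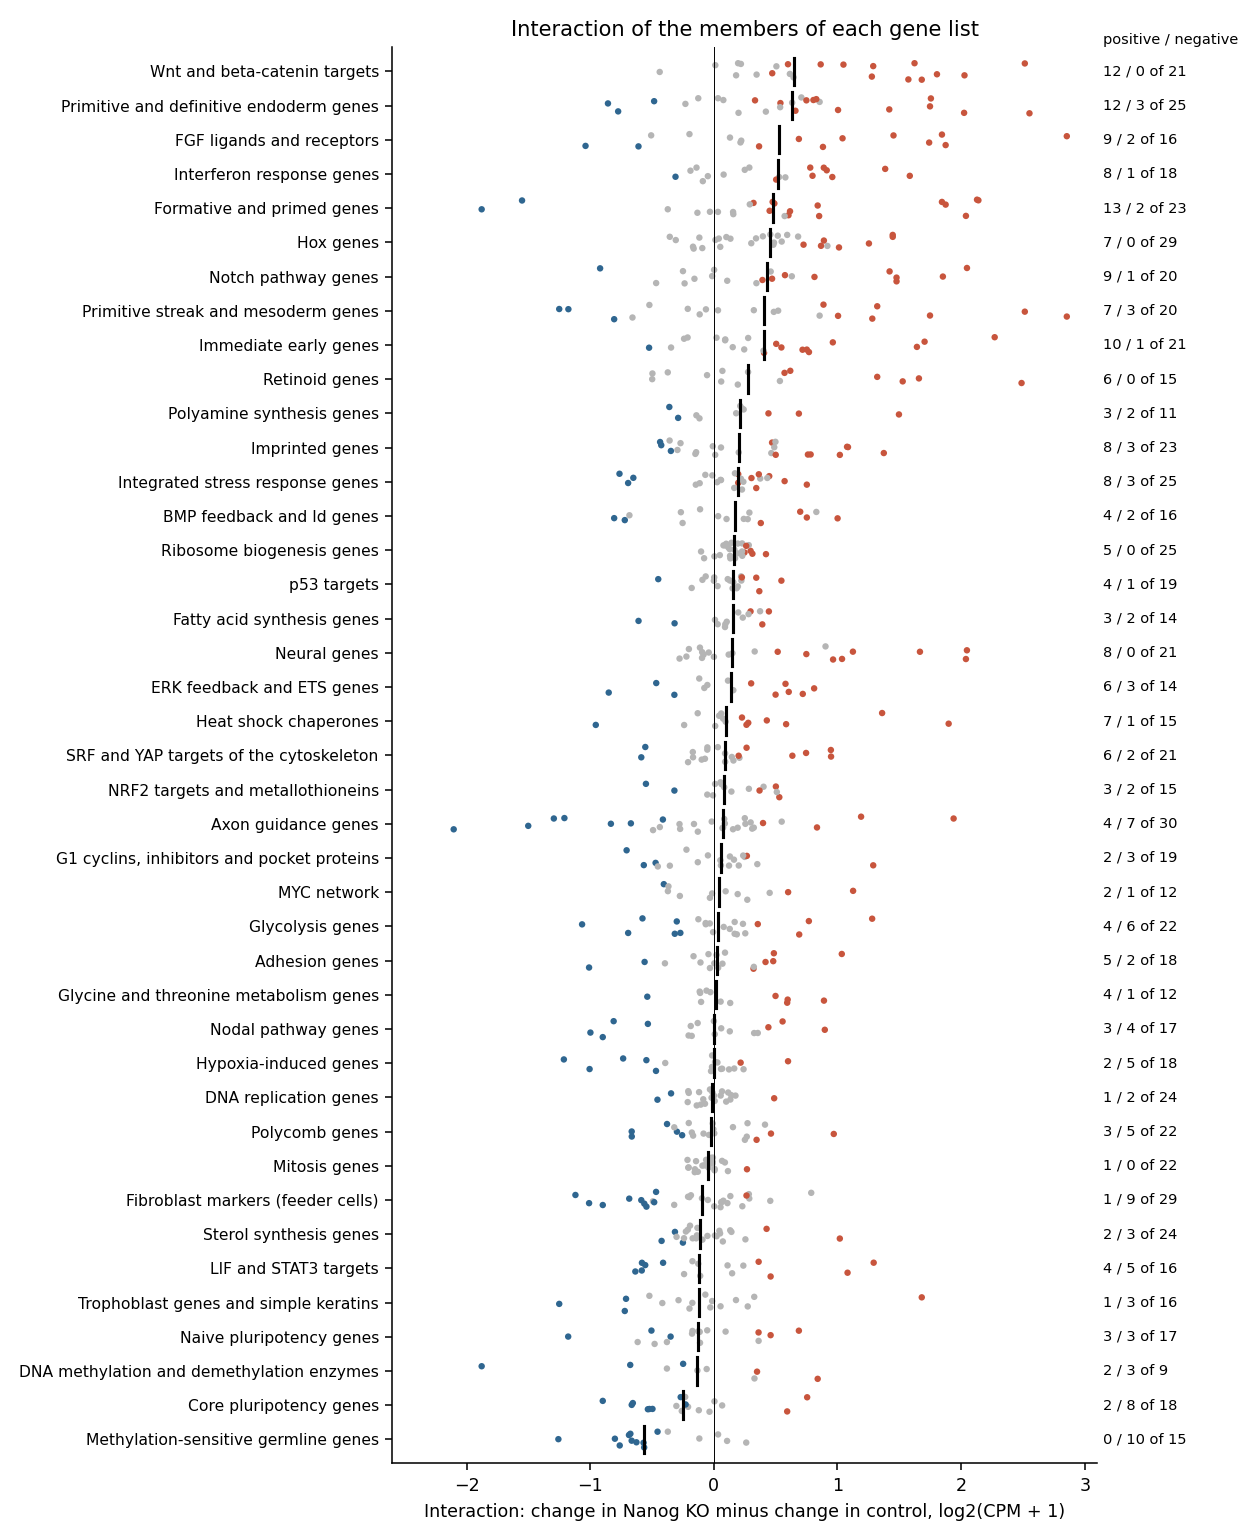
Genotype difference in response for every tested member of each gene list (points), with the list median (bar) and the numbers of positive and negative members, on the log2(CPM + 1) scale. The Wnt list (12 positive of 21, median 0.64) lies right of zero and the methylation-sensitive germline list (10 negative of 15, median -0.57) left of it, while mitosis genes (1 positive of 22) gather near zero.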

How the data were processed

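RNA of ES cells was sequenced and, per the submitters' processing notes, handled with CASAVA 1.8.2, cutadapt 1.3 and RSEM 1.2.3, with mapping to the mouse transcriptome of GRCm38. The authors deposited a signal, RSEM counts scaled to library size with TMM factors (CPM), for 15470 genes and 17 libraries. The methods of the study name a batch correction with ComBat, but 100% of the deposited signal values were whole multiples of 1 read (within 0.001 reads), so they were taken as made before it. How RSEM treated strand is not given in the sources used here.

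Values were analyzed as log2(CPM + 1), a scale that understates the change of low genes and can overstate a genotype difference where 1 genotype is near the floor. Genes needed 1 CPM in at least 3 libraries, which left out 353 rows. 127 rows had no symbol. All 17 libraries were fitted with limma 3.58.1 (R 4.3.3), with a trend, 1 mean for each genotype and time, and Benjamini-Hochberg adjustment over the 15117 genes with a threshold of 0.05. The genotype difference was the 12 h change of *Nanog* KO cells minus the 12 h change of control cells. The same contrast on the reads recovered from the values, fitted with the quasi-likelihood test of edgeR 4.0.16, called 1416 genes positive and 1433 negative, and DESeq2 1.42.0 was also used. The scripts were tested on simulated data.

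Genes were named by rule, namely the 12 largest positive and 12 largest negative differences (adjusted p under 0.05, a mean of at least 5 CPM in 1 group, the same sign without any 1 library, not a predicted gene), up to 4 genes of each list, and genes that the study names. Further examples were chosen after their values were seen. Some genes are not reported here. Members and lists were chosen with earlier results of these data known. Gene positions came from GENCODE M21 (15009 of 15117 genes matched, 108 did not) and promoters from RefSeq. The list counts by edgeR, with 0.1 CPM added and without control replicate 2 or 3 at 0 h were alternatives chosen after seeing the data.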

Additional observations from a re-analysis of the deposited data

Results flagged for a closer look

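The genes named by rule leave out examples chosen after their values were seen (such as *Axin2*, *Lef1* and *Cdx4*). Among them, 21 were picked for a called genotype difference and opposite directions in the 2 genotypes, with a call in each. The calls were by limma with Benjamini-Hochberg adjustment, in log2(CPM + 1), and a called difference was a condition of the pick, not a result. Over all genes, 169 of the 1502 positive and 141 of the 1451 negative genes met the same conditions. Genes that rose in *Nanog* KO cells and fell in control cells were *Vrtn* (2.33), *Sall2* (2.14), *Sox3* (2.13), *Cited1* (2.02), *Sema6a* (1.94), *Dll1* (1.85), *Fgf3* (1.74), *Gbx2* (1.29), *Ccnd1* (1.29), *Eno3* (1.28), *Mycl* (1.13), *Pim1* (1.08), *Cbx2* (0.97), *Spred3* (0.81) and *Lin28a* (0.75). Genes that fell in *Nanog* KO cells and rose in control cells were *Apoe* (-0.86), *Rbpj* (-0.92), *Col1a2* (-1.12), *Taf7l* (-1.26), *Cd37* (-1.57) and *Igfbp5* (-1.76). *Col1a2* is a fibroblast marker, and the part of feeder cells in it was not tested.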

How the results depend on the processing

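Leaving out any 1 library gave 1153 to 1659 positive and 1188 to 1654 negative genotype differences, 3453 to 4012 genes that rose and 3508 to 4101 that fell in *Nanog* KO cells, and 2721 to 3587 that rose and 3045 to 3883 that fell in control cells. The other scalings, filters, variance models and tests gave 1236 to 1719 positive and 1297 to 1683 negative differences, and a requirement of at least 1 in size left 224 and 116. Deviations of same-numbered libraries from their group means correlated at -0.191 to 0.104 (median -0.02), against -0.189 to 0.245 for libraries with different numbers. Deviations within groups of 2 or 3 libraries are tied to each other, so these values cannot settle whether replicate numbers pair the libraries. A fit with the replicate number as a block called 1308 positive and 1297 negative genes, with 2551 calls shared. Positive calls were 47.5% to 54.9% of all calls across settings, and at least 2038 calls were shared with the fit described above, the fewest without control replicate 3 at 0 h. For named genes, 82 of the values under other settings lost their call and 2310 stayed the same. With 1 library left out, 178 lost it and 3024 stayed the same. Losses were uneven, for example in 15 settings for *Sox8* and 0 for *Pou3f1*. *Hoxb1* alone changed sign, to -0.27 by edgeR and -0.24 by DESeq2. Replicate libraries differed by more than sampling noise in every group, with a mean chi-square per gene of 11.9 between the control libraries at 0 h, against 2.52 to 4.78 in the other compared groups. The pooled spread behind the p-values does not reflect the wider spread of that group by itself. Low genes in 1 genotype, such as *Sp5*, *Hoxa2* and *Foxb1*, are where the added constant matters most, and depth limits them.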
